A study of Mus musculus with 5 samples.

Results

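The genes of the dystrophin-associated complex were followed in cardiac atria of mice that carry 1 copy of MRC2 with the change E990G (het) and in those of wild-type mice (WT). MRC2 is a collagen receptor of mesenchymal cells. The complex was taken as a list of 8 gene symbols, Dmd, Utrn, Dag1, Sgca, Sgcb, Sgcd, Dtna and Sspn, out of 57186 genes in the deposited tables. All 8 were found, and all 8 passed the filter on low counts, which 16412 genes passed. They lie on chromosomes X (Dmd), 10 (Utrn), 9 (Dag1), 11 (Sgca and Sgcd), 5 (Sgcb), 18 (Dtna) and 6 (Sspn). The libraries, made with stranded polyA selection and all of batch 2, came from 3 het mice (replicates 5 to 7) and 2 WT mice (replicates 7 and 8), while 7 het and 8 WT mice between 4 and 10 months old belong to the whole series. RNA was made from the whole atrial pair of each animal, and 2 extraction fractions were combined. Age, strain and sex of single animals are not given in the labels used here, and none of the animals is described as treated.

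Dystrophin is a rod-like protein under the muscle cell membrane that binds actin filaments at its N-terminal end and dystroglycan near its C-terminal end. Dystroglycan spans the membrane and binds laminin outside the cell through its sugar chains, so the complex ties the cytoskeleton to the basement membrane. The sarcoglycans and sarcospan are membrane proteins that sit beside dystroglycan, the dystrobrevins and syntrophins bind the C-terminal part of dystrophin, and utrophin is a dystrophin relative that occupies the same position in many tissues. In humans, loss of dystrophin or of several sarcoglycans causes muscular dystrophy with cardiomyopathy.

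Total expected counts per library were between 21410811 and 28353091 in het and between 17784601 and 24445791 in WT atria, so WT 8 gives the least precise values. The atrial markers Nppa, Myl7 and Myl4 were abundant in each library, with at least 3324.6 CPM (counts scaled to library size by TMM). Of these Nppa (log2 fold change -0.64, edgeR adjusted p = 0.041) and Myl4 (-0.68, edgeR adjusted p = 0.0305) fell in het. The authors' deposited table gives -0.0591 for Nppa and 0.1644 for Myl4. The 5 atrial markers summed to 35010, 29331 and 34123 CPM in the het and to 46710 and 51218 CPM in the WT libraries. Their median log2 fold change was -0.58, and -0.32 with trends of transcript length and GC content removed. Of 10 skeletal muscle markers, the myosins Myh1, Myh2 and Myh4 had at most 0.207 CPM. Myl1 (192.1 to 238.2 CPM in het, 394.9 and 386.4 CPM in WT) and Ckm (544.1 to 702.8 CPM in het, 930.8 and 1060.0 CPM in WT), also made in heart, fell. The authors' deposited table gives 0.2462 for Myl1 and 0.0875 for Ckm, of the opposite sign. The 10 skeletal muscle markers summed to 797.5, 793.7 and 942.3 CPM in het and to 1344 and 1464 CPM in WT libraries. WT 7 had 3384 expected counts of 4 Y-linked genes, against 1 to 7 in the other libraries. Of the female-expressed RNA Xist it had 21.53, against 6116.94 to 15279.64 in the others. By these values WT 7 is like a male and the other libraries like females, so sex is partly confounded with genotype. Dmd is the X-linked gene among the 8, and with Y-linked expression as a covariate its log2 fold change was 0.68. That covariate nearly marks WT 7 alone, so the genotype difference in this fit rests mostly on WT 8. Among marker genes of other cells, edgeR called 2 of 6 for macrophages, 1 of 8 for fibroblasts and 1 of 5 for pericytes higher in het, and 0 of 5 for endothelium. The share called higher over all tested genes was 2.99%. For the called macrophage markers Adgre1 and Cd163 the authors' deposited table gives -0.0556 and -0.0166. It gives -0.0618 for Lum of fibroblasts and 0.2648 for Abcc9 of pericytes. Log2 fold changes were above 0 in 6 of 6 macrophage, 5 of 8 fibroblast, 3 of 5 pericyte and 5 of 5 endothelial markers. In the same order their medians were 0.49, 0.25, 0.24 and 0.23. With length and GC trends removed they were 0.44, 0.3, 0.094 and 0.028. The 5 erythroid markers had a median log2 fold change of 1.37 with 0 called, on sums of 5275, 2629 and 2590 CPM in het and 599 and 2227 CPM in WT libraries. The part of these differences in the values of the complex was not tested. Fold changes over all tested genes followed transcript length, with a median log2 fold change of -0.38 in the shortest of 10 equal length classes and 0.33 in the longest. Of genes in the length class of Dmd and Dag1, 6.28% were called higher, and of those in the class of Utrn 15.9%.

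In het atria 3 of the 8 genes were higher and 0 were lower. Dystrophin rose 1.58-fold, utrophin 1.5-fold and delta-sarcoglycan 1.78-fold, by edgeR's quasi-likelihood test with adjusted p-values of 0.023, 0.0398 and 0.0434. Of all 16412 tested genes, 2.99% were called higher and 2.66% lower at the same threshold of 0.05. The median log2 fold change was 0.25 over the 8 genes and -0.0014 over all tested genes. None of these calls held with a het library left out, and few genes of any kind were called in those fits. With het 5, het 6 or het 7 left out, 0 of the 8 genes were called higher. Over all genes these fits called 1 of 16310, 11 of 16334 and 0 of 16178 in either direction, against 926 of 16412 with all libraries. Without 1 of the 5 libraries the log2 fold change was 0.62 to 0.7 for Dmd, 0.42 to 0.78 for Utrn and 0.76 to 0.94 for Sgcd. None of the 8 was called once trends of transcript length and GC content were taken out (smallest edgeR adjusted p = 0.108). That fit called 3 of 16061 genes.

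**Figure D1:**
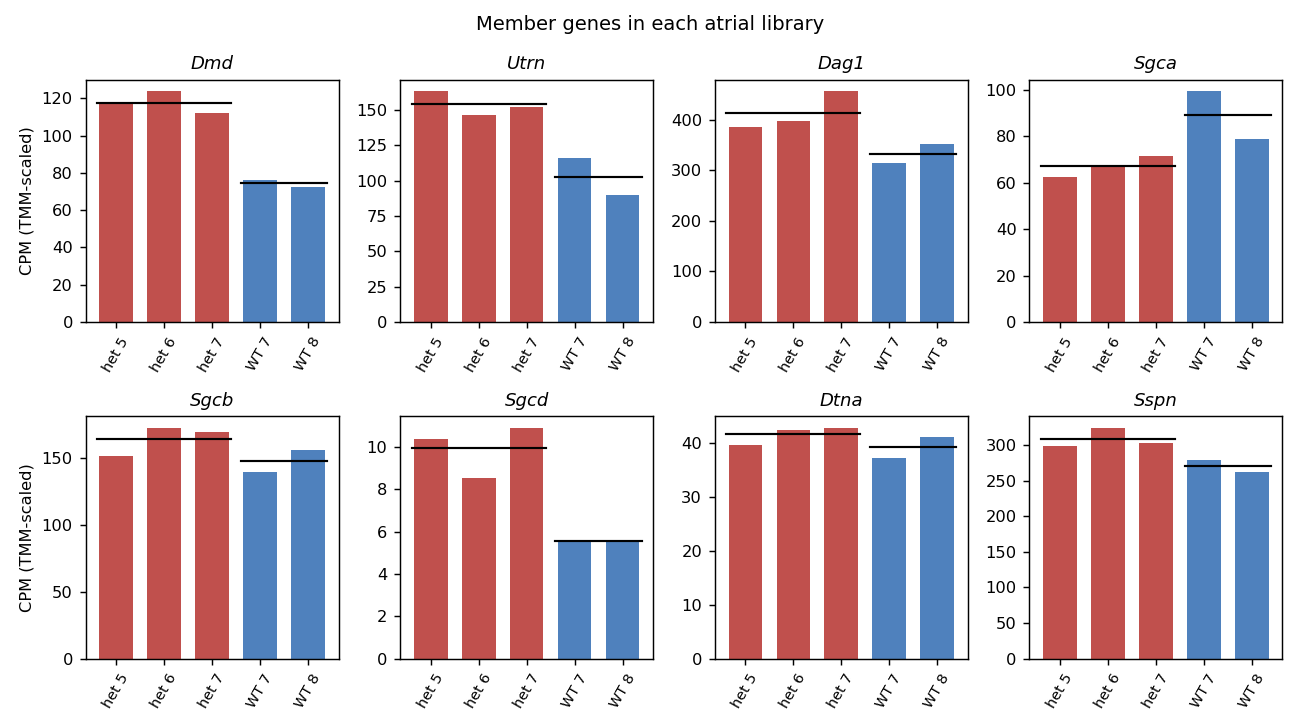
Expression of the 8 genes of the dystrophin complex in each library, in CPM scaled by TMM. Bars are single libraries (het red, WT blue) and black lines are group means. Dmd, Utrn, Dag1, Sgcd and Sspn were higher in each het library than in both WT libraries, and Sgca was lower.

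The 5 libraries separated by genotype for 6 of the 8 genes. Dmd, Utrn, Dag1, Sgcd and Sspn had all het libraries above both WT libraries, and Sgca had all of them below. Over all tested genes 21.1% had the het libraries above and 21.1% below. Sgcb and Dtna overlapped between the groups.

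Dmd (ENSMUSG00000045103), which encodes dystrophin itself, had 117, 124 and 112 CPM in het 5, het 6 and het 7, against 76.4 and 72.6 CPM in WT 7 and WT 8. The lowest het library was clear of the highest WT library, and the spread within each group was small (118 ± 5.73 CPM over 3 het and 74.5 ± 2.7 CPM over 2 WT libraries, SD). The log2 fold change was 0.66 (SE 0.12, edgeR adjusted p = 0.023). The median of its length class was 0.24, and 7.19% of that class had a higher fold. The authors' deposited table, whose comparison may include these same animals, gives 0.185 for Dmd, with confidence limits of -0.384 and 0.753. On the TPM scale, which divides by transcript length, Dmd stood at 19.1, 24.2 and 25.1 TPM in het and at 15.3 and 14.1 TPM in WT atria.

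Dystrophin RNA starts at several promoters, and the transcript tables split the gene between long and short forms. Of 15 Dmd transcripts listed, 10 had counts and 3 held at least 10% of the gene's counts in some library. Dmd-203 (ENSMUST00000114000) has 14910 bases, 79 exons and 11034 coding bases in GENCODE M21, and is the full-length form. Dmd-201 (ENSMUST00000113991) has 4438 bases, 18 exons and 1851 coding bases, and begins 2099510 bases downstream of the start of Dmd-203, and shares 16 exons with it, so it encodes the C-terminal end without the actin-binding part. Both ends of this choice are in the RefSeq promoter table, on build GRCm38.p6. They are shown as the 250 bases before each start, because Dmd-203 and Dmd-201 begin near different starts. A further long transcript, ENSMUST00000239269, is not in GENCODE M21, and its start is not known here. The RefSeq internal start is that of Dmd-206, a transcript with 0 counts in each library, and Dmd-201 begins further downstream. Capitals mark the TATA motif TATAAA, the GC box GGGCGG, the E box CAGCTG and the CArG box, the motif bound by serum response factor, each searched on both strands.
Dmd upstream start, chrX:82948620-82948869, plus strand: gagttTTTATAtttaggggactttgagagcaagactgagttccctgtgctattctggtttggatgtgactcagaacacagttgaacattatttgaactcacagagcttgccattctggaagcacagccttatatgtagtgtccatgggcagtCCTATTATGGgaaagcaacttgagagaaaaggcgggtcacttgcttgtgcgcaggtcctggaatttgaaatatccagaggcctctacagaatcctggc
Dmd internal start, chrX:85048045-85048294, plus strand: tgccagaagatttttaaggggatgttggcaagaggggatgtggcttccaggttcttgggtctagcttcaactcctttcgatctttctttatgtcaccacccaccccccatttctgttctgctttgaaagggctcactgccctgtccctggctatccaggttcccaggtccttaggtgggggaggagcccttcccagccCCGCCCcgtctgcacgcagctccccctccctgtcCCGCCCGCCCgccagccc
Between the upstream window and the first base of Dmd-203 lie 33 bases, and between the internal window and that of Dmd-201 lie 118 bases. The upstream window holds a CArG box whose first base lies 98 bases before the start, and a TATAAA on the opposite strand 245 bases before it. The internal window has no match to either of these and holds 3 GGGCGG matches on the opposite strand, 52, 18 and 14 bases before its start, of which the last 2 overlap. Neither window holds CAGCTG. Among 32851 RefSeq promoter windows of the same length, 1.5% hold a CArG box, 12.4% the TATA motif, 32.7% the GC box and 13% the E box. The upstream window has a GC content of 45.2%, below the median of 52.4% over all windows, and holds 2 CpG, while the internal window holds 7.

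Most of the difference in Dmd counts between het and WT atria lay on the long transcripts. The 2 transcripts of 10000 bases or longer, Dmd-203 and ENSMUST00000239269 (10809 bases, not in GENCODE M21), together had 67.5, 51.6 and 46.6 CPM in het 5, het 6 and het 7. They had 21.7 and 11.6 CPM in WT 7 and WT 8. The groups did not overlap, with a mean of 55.2 ± 10.9 CPM over the 3 het libraries and of 16.6 ± 7.12 CPM over the 2 WT libraries (SD). The 13 shorter transcripts summed to 49.1, 72.2 and 65.8 CPM in the het libraries, against 54.8 and 61.0 CPM in the WT libraries, and overlapped. Long transcripts thus differed by 38.6 CPM and short ones by 4.48 CPM between the group means. With 3 against 2 libraries the smallest exact two-sided permutation p is 0.2, which the long sum reached, and the short sum had an exact p of 0.8.

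**Figure D2:**
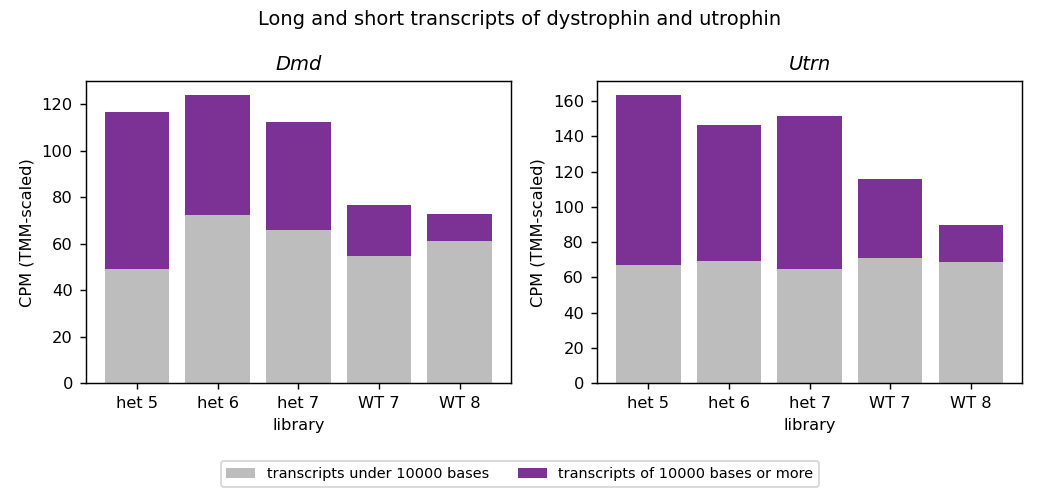
CPM (TMM-scaled) on transcripts of 10000 bases or more (purple) and under 10000 bases (grey) of Dmd and Utrn, stacked, in each library. The grey parts have similar heights in het and WT libraries, and the purple parts are higher in each het library, up to 67.5 CPM for Dmd and 96.0 CPM for Utrn.

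As a share of the gene's counts, Dmd-201 held 33.7%, 51.5% and 49.2% in het 5, het 6 and het 7, against 60.5% and 72.2% in WT 7 and WT 8. Dmd-203 held 30.6%, 11.2% and 12.85% in the het libraries and 9.73% and 3.56% in the WT libraries. Within het, het 5 stood apart with the highest share of the full-length form, and within WT, WT 8 had the lowest. Each share separated the groups, with an exact two-sided permutation p of 0.2. Shares of RSEM counts carry an error of assigning reads between overlapping transcripts that the deposited files do not give.

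Utrn (ENSMUSG00000019820) encodes utrophin, which in muscle is concentrated at nerve and tendon junctions and in other tissues is found in vessels and epithelia. It had 163, 147 and 152 CPM in het 5, het 6 and het 7, against 116 and 89.6 CPM in WT 7 and WT 8. The lowest het library was above the higher WT library, and WT 8 was the lowest of all. The log2 fold change was 0.58 (SE 0.14, edgeR adjusted p = 0.0398), and without WT 8 it was 0.42 (edgeR adjusted p = 0.103). The median of its length class was 0.33, and 16.9% of that class had a higher fold. In the authors' deposited table it was 0.202 (confidence limits -0.219 and 0.623). Per length and over all forms of each gene, utrophin and dystrophin were at similar levels, with a ratio of Utrn to Dmd TPM of 1.04, 0.793 and 0.849 in het and 1.1 and 0.929 in WT libraries (exact two-sided permutation p = 0.4). Short forms led these TPM, with 47.39% to 77.6% of Dmd on Dmd-201 and 57.47% to 82.17% of Utrn on Utrn-206. The ratio thus does not compare the full-length forms.

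Utrophin showed the same division by transcript length. Utrn-201 (ENSMUST00000076817, 12382 bases, 10290 coding bases) had 87.0, 76.4 and 80.9 CPM in het 5, het 6 and het 7, against 40.0 and 19.9 CPM in WT 7 and WT 8. Utrn-206 (ENSMUST00000219003, 5751 bases, 2868 coding bases), which starts 312856 bases further downstream, had 65.2, 69.2 and 63.0 CPM in het and 68.9 and 70.0 CPM in WT libraries. The long form was higher in each het library and the short form overlapped between groups. In the edgeR fit over 38651 transcripts the log2 fold change was 1.44 (SE 0.31) for Utrn-201 and -0.077 (SE 0.11) for Utrn-206, with adjusted p-values of 0.226 and 0.842. Utrn-201 held 53.7%, 51.4% and 53.0% of the gene's counts in the het libraries, against 35.0% and 21.7% in the WT libraries.

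That transcript fit called 0.0% of all transcripts (0 of 38651 in edgeR, with 4899 at an unadjusted p under 0.05, and 0 in limma-voom). On simulated counts the transcript fit called 0% of true log2 fold changes of 1 and 13.8% of those of 2, in either direction. The lack of calls therefore does not show that transcripts are level. With every transcript with a count kept it called 1041. Of the 15 transcripts of the complex with at least 10% of their gene's counts in some library, 6 had an unadjusted p under 0.05. Without WT 7, which left a single WT library assumed to vary like the others, Utrn-201 (log2 fold change 2.04, edgeR adjusted p = 0.0375) and Dag1-201 (2.89, edgeR adjusted p = 0.0478) were called.

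A shift towards long transcripts was common to many genes in these libraries. Among 245 genes that have both a transcript of 8000 bases or longer and one of at most 6000 bases, each with at least 10% of the counts in some library, the median share of the long forms was 61.56%, 59.97% and 58.86% in het 5, het 6 and het 7. It was 53.7% and 49.7% in WT 7 and WT 8. In 49.8% of these genes the long-form share was higher in each het library than in both WT libraries, and in 8.98% it was lower. The difference of group means had a median of 4.81 percentage points over the 245 genes. It was 24.8 points for Dmd (47.0% ± 9.41 in het, SD, n = 3, against 22.2% ± 8.75 in WT, SD, n = 2) and 25.4 points for Utrn (56.3% ± 3.1 against 30.9% ± 11.3). A larger difference was found in 2.9% of these genes for Dmd and in 2.0% for Utrn. These length limits were chosen after the values were seen. The part that RNA integrity has in this shift was not tested, and the length trend cannot be told apart from genotype in 5 libraries.

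**Figure D3:**
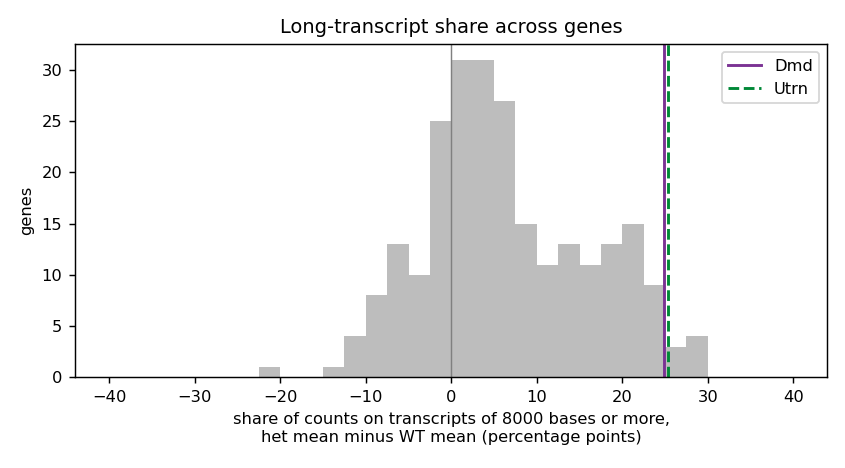
Number of genes (y axis) by the difference between het and WT means in the share of counts on transcripts of 8000 bases or more, in percentage points (x axis), for 245 genes with both long and short transcripts. The lines mark Dmd (24.8 points) and Utrn (25.4 points), both in the right tail of a distribution whose median is 4.81 points.

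Dag1 (ENSMUSG00000039952) encodes dystroglycan, whose precursor is cleaved into the laminin-binding and the membrane-spanning subunit. It had 385, 397 and 457 CPM in het 5, het 6 and het 7, against 314 and 352 CPM in WT 7 and WT 8. The groups did not overlap, but het 7 stood above the other het libraries, and Dag1 did not pass the test (log2 fold change 0.31, SE 0.14, edgeR adjusted p = 0.193). In its length class 39.4% of genes had a higher fold. The authors' deposited table gives -0.098 (confidence limits -0.515 and 0.319).

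Of the 2 named Dag1 transcripts, the minor and shorter one had the higher log2 fold change. Dag1-201 (ENSMUST00000080435, 4364 bases) had 39.0, 29.0 and 39.3 CPM in het 5, het 6 and het 7, against 8.98 and 4.84 CPM in WT 7 and WT 8. Every het library had more than 3 times the CPM of the higher WT library. The major transcript, Dag1-204 (ENSMUST00000191899, 5662 bases), had 326, 354 and 400 CPM in het and 296 and 351 CPM in WT libraries, which overlap. The log2 fold changes in the edgeR transcript fit were 2.36 (SE 0.32, adjusted p = 0.164) and 0.15 (SE 0.15, adjusted p = 0.74). Both transcripts have 4 exons and 2679 coding bases. Dag1-201 starts 143 bases downstream of Dag1-204 and its 3' end lies at -1310 bases relative to that of Dag1-204, and the 2 have coding parts of the same length. Another minor transcript, Dag1-203 (ENSMUST00000171412, 4415 bases, chosen after its values were seen), held 4.11% ± 0.15 of the counts over the 3 het and 1.12% ± 0.42 over the 2 WT libraries (SD). In Dmd and Utrn it was the longer transcripts that had the higher values in het.

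Among the sarcoglycans, Sgcd (ENSMUSG00000020354) was called. It encodes delta-sarcoglycan, which joins beta-sarcoglycan in the core of the subcomplex in both striated and smooth muscle. Its level was the lowest of the 8 genes, with 222, 191 and 317 expected counts in het 5, het 6 and het 7, against 137 and 95 in WT 7 and WT 8. Scaled, these were 10.4, 8.55 and 10.9 CPM in het and 5.62 and 5.55 CPM in WT libraries and do not overlap. The log2 fold change was 0.84 (SE 0.21, edgeR adjusted p = 0.0434). Sgcd transcripts are short, with a mean of 1596 bases, in a length class whose median log2 fold change was -0.16 and where 2.13% of genes had a higher fold than Sgcd. With trends of length and GC content removed its log2 fold change was 0.83 (edgeR adjusted p = 0.108). In the authors' deposited table Sgcd has the largest fold of the 8, 0.526, with confidence limits of -0.119 and 1.17.

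The call for Sgcd was lost in each of the 5 fits without 1 library (edgeR adjusted p from 0.0846 to 0.109), with folds between 0.76 and 0.94. One transcript, Sgcd-201 (ENSMUST00000077221, 1617 bases, 867 coding bases), held 99.0% ± 0.55 of its counts in het (SD, n = 3) and 96.1% ± 0.4 in WT (SD, n = 2). Smooth muscle, which also makes delta-sarcoglycan, had markers with values in the other direction. All 5 smooth muscle markers (Myh11, Acta2, Tagln, Cnn1 and Lmod1) had log2 fold changes below 0, from -1.02 for Cnn1 to -0.073 for Lmod1. Of these 1 was called (Tagln), beside 2.66% of all tested genes called lower. The 5 markers summed to 100.5, 90.4 and 130 CPM in the het libraries, against 179 and 196 CPM in the WT libraries. The authors' deposited table gives 0.6494 for Myh11, 0.3623 for Tagln and 0.0724 for Lmod1. It gives -0.1147 for Acta2 and -0.7133 for Cnn1. The part of smooth muscle in the Sgcd values was not tested.

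Sgcb (ENSMUSG00000029156), the beta-sarcoglycan gene, had 152, 173 and 169.7 CPM in het 5, het 6 and het 7, against 139.9 and 156 CPM in WT 7 and WT 8. The groups overlapped (log2 fold change 0.15, SE 0.13, edgeR adjusted p = 0.508). Its log2 fold change differed from the median of its length class by -0.002, and with length and GC trends removed it was -0.10. The ratio of Sgcd to Sgcb TPM was 0.186, 0.139 and 0.176 in the het libraries and 0.111 and 0.106 in the WT libraries. It separated the groups with an exact two-sided permutation p of 0.2, the smallest that this design allows.

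Sgca (ENSMUSG00000001508), the alpha-sarcoglycan gene, is restricted to striated muscle, and had lower CPM in each het library. It had 62.5, 67.7 and 71.6 CPM in het 5, het 6 and het 7, against 99.4 and 78.8 CPM in WT 7 and WT 8. All het libraries were below both WT libraries, and WT 7 was far above WT 8. The log2 fold change was -0.41 (SE 0.13) and did not pass the test (edgeR adjusted p = 0.0852). Without WT 8, which left a single WT library assumed to vary like the others, it was -0.55 and was called (edgeR adjusted p = 0.0388). Sgca has short transcripts (mean 1187 bases), in a length class whose median log2 fold change was -0.26, and with length and GC trends removed its fold was -0.086 (edgeR adjusted p = 0.814). The authors' deposited table gives -0.083.

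The direction of Sgca depended on the unit. Its TPM were 67.8, 95.5 and 118 in het 5, het 6 and het 7, against 103 and 68.0 in WT 7 and WT 8, and overlapped. The mean transcript length that RSEM used for the gene was 1225, 1081 and 996 bases in the het libraries and 1254 and 1381 bases in the WT libraries. A fragment of 351 bases, Sgca-204 (ENSMUST00000152042), took 15.85%, 32.6% and 37.5% of the gene's TPM in the het libraries and 8.68% and 0.0% in the WT libraries, on only 12.4, 23.9 and 52.2 expected counts in het and 14.3 and 0.0 in WT. It holds too few counts for the naming rule and was chosen after its values were seen. The main coding transcript, Sgca-201 (ENSMUST00000100551), had 45.2, 49.2 and 55.7 CPM in het and 80.9 and 59.0 CPM in WT libraries. Markers of cardiomyocytes, the cells that express Sgca in the heart, were lower in sum, with log2 fold changes above 0 in 2 of 8. Their median log2 fold change was -0.35, and -0.18 with length and GC trends removed. Tnni3 fell by 0.60 (edgeR adjusted p = 0.0439), while Ryr2 rose by 0.69 (edgeR adjusted p = 0.027). The authors' deposited table gives 0.2064 for Tnni3 and 0.7292 for Ryr2. The 8 cardiomyocyte markers summed to 41480, 42355 and 47091 CPM in het and to 53282 and 52237 CPM in WT libraries. The part of cell composition in the Sgca values was not tested, and in bulk tissue fewer cells of a type and less RNA per cell cannot be told apart.

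**Figure D4:**
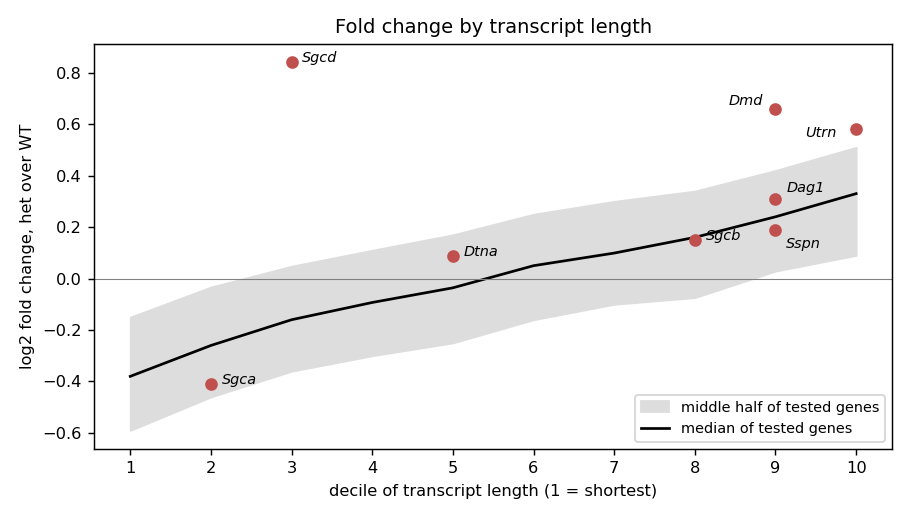
Log2 fold change of het over WT for the 8 genes (red points) by class of transcript length (10 classes of equal size, 1 = shortest), with the median (line) and interquartile range (grey) of all 16412 tested genes. The median runs from -0.38 in class 1 to 0.33 in class 10. Sgcd, at 0.84 in class 3, lies farthest from it, and Dmd and Utrn lie above the grey band.

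Sspn and Dtna were close to the genes of their own length. Sspn (ENSMUSG00000030255) encodes sarcospan, a small tetraspanin-like protein that binds the sarcoglycans. It had 299, 324 and 303 CPM in het 5, het 6 and het 7, against 279.5 and 262 CPM in WT 7 and WT 8. The groups did not overlap, but the log2 fold change of 0.19 (SE 0.13, edgeR adjusted p = 0.398) was below the median of 0.24 in its length class. Dtna (ENSMUSG00000024302) encodes alpha-dystrobrevin, which binds dystrophin and the syntrophins. It had 39.7, 42.5 and 42.8 CPM in the het libraries, against 37.2 and 41.2 CPM in the WT libraries, with a log2 fold change of 0.089 (SE 0.13, edgeR adjusted p = 0.714), and 33.5% of its length class had a higher fold. Both folds were below 0 without the length and GC trends (-0.097 for Sspn and -0.039 for Dtna).

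The 3 named transcripts of Dtna each held at least 10% of its counts in some library. Dtna-206 (4490 bases) held 51.3%, 47.2% and 46.9% in het 5, het 6 and het 7, against 45.0% and 46.1% in WT 7 and WT 8. The shortest of them, Dtna-201 (1596 bases, 1113 coding bases), held 22.7% ± 3.11 in het (SD, n = 3) and 28.6% ± 2.69 in WT (SD, n = 2), and the longest, Dtna-202 (6295 bases, 2046 coding bases), 20.7% ± 3.86 and 17.6% ± 1.71. Shares of Dtna-201 and Dtna-206 did not overlap (exact two-sided permutation p = 0.2 for each), and those of Dtna-202 did (exact p = 0.6). Sgcb-201 and Sspn-201 held at least 98.9% of their genes' counts in each library, so these genes have no division to compare.

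**Figure D5:**
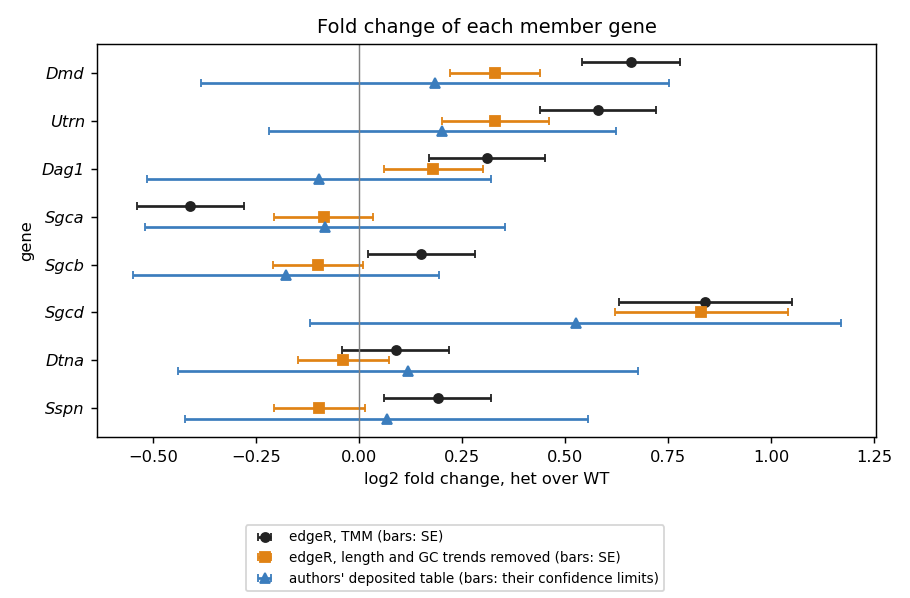
Log2 fold change of het over WT for each gene from edgeR with TMM scaling (black circles), from edgeR with length and GC trends removed (orange squares), both with bars of 1 SE, and from the authors' deposited table (blue triangles) with their confidence limits. Removing the trends moved Dmd to 0.33 and Utrn to 0.33 and left Sgcd at 0.83, and each of the authors' intervals holds 0.

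Compared per length, the 8 genes spanned a wide range. Means over the 5 libraries were 90.5 TPM for Sgca, 74.9 for Dag1, 69.2 for Sspn and 44.6 for Sgcb, then 20.6 for Dtna, 19.5 for Dmd, 18.0 for Utrn and 6.51 for Sgcd. Ranges over libraries overlapped between Sgca, Dag1 and Sspn and between Dtna, Dmd and Utrn, so the order within these groups is within the spread. Sgcb (38.8 to 52.7 TPM) was clear of Sspn (54.6 to 78.7 TPM) and of Dtna (17.1 to 23.7 TPM), and Sgcd (4.1 to 9.26 TPM) was below all the others. In TPM the het libraries were above both WT libraries for 6 of the 8 genes, Sgcb among them, and for 27.7% of all tested genes. On log2(TPM + 1) the median of all tested genes was itself at 0.099, and none of the 8 was called by limma-trend (smallest adjusted p = 0.152).

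The genes whose CPM followed Dmd most closely over the 5 libraries, among 9512 genes with a mean of at least 10 CPM, were Hipk1, Usp32 and Slc24a2, with Pearson correlations of log2 CPM of 0.9992, 0.9989 and 0.9987. Among those nearest to Utrn were Zfp36 and Zfc3h1, with 0.9994 and 0.999, and for Sgca they were Thap4, Rbck1 and Cfap20, with 0.997, 0.9965 and 0.9945. With 5 points that share library and depth, high values are common. A correlation of at least 0.95 was reached by 458 genes (4.81%) with Dmd, by 248 (2.61%) with Utrn and by 113 (1.19%) with Sgca.

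Other genes of the dystrophin complex were mostly level between the groups. Of 14 listed, 12 were tested, 0 were higher and 1 was lower, with a median log2 fold change of -0.066. Over all tested genes 2.66% were called lower. The lower gene was Cav3, the muscle caveolin that binds dystroglycan. It had 34.1, 28.6 and 34.6 CPM in het 5, het 6 and het 7, against 45.5 and 57.9 CPM in WT 7 and WT 8, and fell by 0.67 on the log2 scale (SE 0.15, edgeR adjusted p = 0.031). It was -0.37 and not called once length and GC trends were taken out, and of the 5 fits without 1 library the call held in the one without WT 7 (-0.83, edgeR adjusted p = 0.0242). The authors' deposited table gives -0.3548. Sgce, the epsilon-sarcoglycan gene, had 48.9, 42.2 and 42.7 CPM in the het libraries, against 42.8 and 36.8 CPM in the WT libraries, and overlapped (log2 fold change 0.17, SE 0.13, edgeR adjusted p = 0.483). It was chosen after its values were seen.

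Among 22 genes of cytoskeletal partners, 3 were higher and 0 lower, with a median log2 fold change of -0.0062. Over all tested genes 2.99% were called higher, and in the length classes of Vcl and Syne1 6.28% and 15.9%. Vcl, the gene of the adhesion protein vinculin, had 111.8, 110.0 and 139 CPM in het 5, het 6 and het 7, against 70.8 and 84.1 CPM in WT 7 and WT 8, and rose by 0.64 (SE 0.15, edgeR adjusted p = 0.0344). Macf1, a spectraplakin that links actin to microtubules, rose by 0.53 (SE 0.14, edgeR adjusted p = 0.0439), and Syne1, the nuclear envelope spectrin repeat protein nesprin, by 0.66 (SE 0.16, edgeR adjusted p = 0.0408). Removal of the length and GC trends gave 0.39 for Vcl, 0.30 for Macf1 and 0.34 for Syne1, none of them called. The authors' deposited table gives log2 fold changes of -0.8582 for Vcl and -0.1078 for Macf1, of the opposite sign, and of 0.0746 for Syne1. Without any 1 of the 5 libraries, 0 or 1 of the genes of this list were called higher.

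The laminin-binding integrin complex, a parallel link to the basement membrane, had 0 higher and 1 lower of 12 tested genes. Over all tested genes 2.66% were called lower. Itgb1bp2, the gene of melusin, an integrin-binding protein of striated muscle, had 92.7, 95.9 and 97.4 CPM in the het libraries, against 126 and 164 CPM in the WT libraries. It fell by 0.60 (SE 0.14, edgeR adjusted p = 0.0327), and was at -0.47 and not called once length and GC trends were taken out. Of the 5 fits without 1 library the call held in the one without WT 7 (-0.78, edgeR adjusted p = 0.0157). The authors' deposited table gives 0.0537, of the opposite sign.

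Dystroglycan glycosylation, basement membrane ligands and membrane repair had no calls in edgeR, among 21, 17 and 18 tested genes. At an unadjusted p under 0.05 they had 3, 3 and 4 genes, beside 24.7% of all tested genes. DESeq2 called 1 lower glycosylation gene, 0 ligand genes, and 2 higher and 1 lower repair gene. It called 1647 of all 16412 tested genes, in either direction. The median log2 fold changes of the lists in edgeR were -0.10, 0.025 and -0.021. By mean TPM the glycosylation list was led by Gmppa (log2 fold change -0.21, SE 0.13) and then Dpm3 (-0.74, SE 0.38), which serve the supply of mannose for sugar chains. Dpm3 is short (407 to 409 bases) and had few counts, with 2.64 to 9.26 CPM. For the ligands the leaders were Bgn, the biglycan gene (0.061, SE 0.13), and Lamb2, a laminin chain gene (-0.17, SE 0.14), and for membrane repair Ehd4 (-0.077, SE 0.15) and S100a10 (-0.12, SE 0.17). The folds of Lamb2, Ehd4 and S100a10 were above 0 on the TPM scale, and those of Gmppa and S100a10 with length and GC trends removed. Over the 6 lists the authors' deposited table has medians between -0.174 (integrin complex) and 0.024 (membrane repair), with 0 of 14927 genes at an adjusted p under 0.05 (smallest 0.277) and 836 at an unadjusted p under 0.05.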

How the data were processed

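Atria of 3 het and 2 WT mice were sequenced with paired reads of 150 bases, per the labels' protocols. The submitters' processing notes name STAR, RSEM, limma, edgeR and GRCm39, with no versions. Their annotation release is not given in the sources used here. Expected counts per gene and transcript, estimated by RSEM, were deposited without normalization, per the file headers. TPM, isoform percent (of the gene's TPM) and length are further deposited columns, per the file headers. In the authors' deposited comparison there are log2 fold changes with limits, moderated t scores and p-values, per the file headers. Its t is exactly 0 for many genes, as in a test against a minimum fold, so its p-values are not like those computed here.

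Rounded expected counts were filtered by edgeR's default (16412 of 57186 genes, 38651 of 149194 transcripts), scaled by TMM and fitted with edgeR's robust quasi-likelihood test. Benjamini-Hochberg adjustment ran over all tested genes or transcripts, with a threshold of 0.05. SEs were computed as |log2 fold change| over the root of F. Nothing in the labels says whether animals share a litter, so p-values hold the spread between these animals. Single values had an exact permutation test over 10 splits (smallest p 0.2).

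The 8 genes, the lists and the markers were chosen with earlier results of these data known. Named are the 8 genes, per list up to 4 called genes or else the 2 of the highest TPM, transcripts with at least 10% of a gene's counts in some library, and the 3 genes most like Dmd, Utrn and Sgca. Some genes that these rules name are not reported here. Length limits for transcript sums were set after the data were seen. Alternatives were other scalings, filters and tests, a Y-linked covariate, log2 TPM with a pseudocount of 1 or 0.1 in limma-trend, each library left out, and offsets for trends of length alone or of length and GC content (GC known for 97.9% of tested genes), fitted with mgcv. Symbols were found for 91% of gene IDs. Transcript names and exons come from GENCODE M21 and promoters from RefSeq (7 of the 8 genes matched), both on GRCm38, another build than the files'. The code was tested on simulated data. There the gene fit called 57.1% of true log2 fold changes of 1 and 86.9% of those of 2, in either direction. Of its 159 calls 17 were false. Versions were 4.3.3 for R, 4.0.16 for edgeR, 3.58.1 for limma, 1.42.0 for DESeq2 and 1.9.3 for mgcv.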

Additional observations from a re-analysis of the deposited data

How the results depend on the processing

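Of 128 fold changes (8 genes under 16 alternatives), 93 kept their direction and their side of the threshold, 29 lost the call, 1 gained it and 5 turned. The lost calls were those of Dmd in 7 of the 16 alternatives, of Utrn in 10 and of Sgcd in 12. The cause was not tested. On log2(TPM + 1) and log2(TPM + 0.1), where the median of all genes was 0.099 and 0.13, Dmd was at 0.59 and 0.62, Utrn at 0.41 and 0.44, and Sgcd at 0.77 and 0.89, none called, and Sgca turned to 0.12 and 0.13. With the length trend removed Dmd was at 0.42, Utrn at 0.34 and Sgcd at 0.95, and without length and GC trends Dmd and Utrn were at 0.33 and Sgcd at 0.83, none called, while Sgcb (-0.1), Dtna (-0.039) and Sspn (-0.097) turned. Upper-quartile scaling (Utrn 0.53, Sgcd 0.79) and limma-voom (Utrn 0.59, Sgcd 0.83) lost those calls, and the Y-linked covariate that of Sgcd (0.87). Of the 8 genes, 1 was higher under upper-quartile scaling and limma-voom and 0 under both TPM scales and both trend removals. Leaving out 1 library gave 0 to 2 higher and 0 to 1 lower, with folds of 0.62 to 0.7 for Dmd, 0.42 to 0.78 for Utrn, 0.76 to 0.94 for Sgcd and -0.55 to -0.23 for Sgca. A fit without a WT library assumes that the lone WT library varies like the others. The Y-linked covariate nearly marks WT 7 alone, so its fit sets het mostly against WT 8.

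Over all genes, 795 were higher with library size alone. Higher and lower were 867 and 780 in DESeq2, 237 and 222 in limma-voom, 1304 and 907 with every gene kept (median -0.14), 0 and 1 on log2(TPM + 1), 2 and 3 on log2(TPM + 0.1), 2 and 1 without length and GC trends, and 9 and 9 with the length trend removed. The Y-linked covariate gave 204 lower, and leaving out 1 library 0 to 588 higher and 0 to 290 lower. Gmppa turned to 0.16 and 0.071 and S100a10 to 0.11 and 0.17 with length and GC or length alone removed. On the TPM scales Lamb2 turned to 0.13 in both, Ehd4 to 0.078 and 0.079, and S100a10 to 0.094 and 0.095. Without 1 library Ehd4 lay between -0.22 and 0.1 and S100a10 between -0.28 and 0.034.

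Cytoskeletal partners had 5 higher in DESeq2 and with every gene kept, 1 under upper-quartile scaling, limma-voom and a mean of at least 1 CPM, and 0 on the TPM scales and with trends removed, and 1 lower under upper-quartile scaling and DESeq2. Other complex genes had 2 lower under upper-quartile scaling, DESeq2 and a mean of at least 1 CPM, and 0 on the TPM scales and with trends removed. The integrin complex had 0 lower in limma-voom, on the TPM scales and with trends removed. Membrane repair had 1 higher with library size alone, 2 in DESeq2 and with the Y-linked covariate and 3 with every gene kept, and 1 lower under upper-quartile scaling, DESeq2 and with every gene kept. Glycosylation had 1 higher with every gene kept and 1 lower in DESeq2, and the ligands 2 higher with every gene kept and with the Y-linked covariate. Leaving out 1 library gave 0 to 2 higher and 0 to 1 lower in these lists.

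With every transcript kept, ENSMUST00000239269 (1.59), Utrn-201 (1.48) and Dag1-201 (2.41) were called. Without 1 library the ranges were -0.063 to 0.28 for Dmd-201, 1.04 to 2.04 for Utrn-201, 2.01 to 2.89 for Dag1-201 and -0.39 to 0.29 for Sgca-202. By isoform percent the difference in points was -17.61 for Utrn-206, -13.57 for Dag1-204, -16.98 for Sgca-201, 0.57 for Sgcb-201 and 8.66 for Sgcd-201. Without 1 library the share differed by -33.76 to -17.53 for Utrn-206, -8.47 to 0.84 for Sgca-201, -0.017 to 0.073 for Sgcb-201 and -0.41 to 0.66 for Sspn-201. No paired analysis was possible because het and WT share only replicate number 7.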
